A study of Mus musculus with 18 samples.

Results

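Krt8, Krt18, Krt19, Upk3b, Msln, Wt1, Prg4 and Aldh1a2 are genes of the mesothelium, the flat epithelium that lines body cavities and organs, and of the epicardium, the mesothelium that covers the heart. They were taken by gene name from the count tables of heart RNA-seq, 8 of the 35560 genes found in both tables, and all 8 were among the 14623 genes with enough counts to be tested. The hearts came from male wild-type C57BL/6 mice. All mice received isoproterenol (ISO), a beta-adrenergic agonist that stresses the heart, by daily injection under the skin at 2.5 mg/kg/day for 21 days. The ISO group was given water by gavage over that time. The other groups were given polystyrene (PS) particles by daily gavage at 50 mg/kg/day for the same 21 days, with a particle size of 100 nm or of 1 µm. Each group had 6 libraries, and no hearts without ISO were among them, so every value below is from a stressed heart. The ages of the mice and the region of the heart are not given in the sources used here, nor is how a library relates to an animal beyond the labels naming each as a separate sample, so p-values measure the spread between these samples. The libraries were sequenced by different companies, named as batches in the labels. Batch 1 held ISO replicates 1 to 3, 5 libraries of the 100 nm group and 4 of the 1 µm group. Batch 2 held the other 3, 1 and 2 libraries.

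The adult epicardium is a thin cell layer that makes up a small share of heart tissue. It holds an epithelial program of simple keratins and surface proteins, secretes a lubricating proteoglycan into the pericardial space and makes retinoic acid, and after injury of the heart its cells can be activated and supply signals to the muscle beneath. The same genes are read in other mesothelia, such as pleura, and several of them in other cells: the keratins in most simple epithelia, Wt1 in some endothelial cells and Prg4 in joint tissue.

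Total counts ran from 14032257 to 22600570 per library. ISO replicate 2 stood apart in the number of genes detected: 13152 of the joined genes had counts there, while the rest of the ISO group had 16562 to 17913 and the PS libraries 16780 to 18755. It had 0 counts of Krt18, Krt19, Upk3b and Msln, which at its depth allows up to 0.232 CPM of each (CPM are counts scaled to the library total). ISO replicate 4 had 0 counts of Upk3b and Msln, which allows up to 0.233 CPM. These limits, set at 3 counts, cover counting error only. The ISO libraries of batch 1 also differed much from each other. The chi-square per gene between their counts was 617.7 for replicates 1 and 2, 459.8 for 2 and 3 and 195.4 for 1 and 3. Every other pair compared within a group and batch had at most 121.9. ISO replicate 1 had the lowest total count of all libraries and the lowest summed level of ventricular muscle markers (39030 CPM). The cause of these differences was not tested. ISO replicate 5 was high for most of the genes, and the summed CPM of the 8 genes was 155 there, against 17.2 to 50.1 in the other 5 ISO libraries.

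Levels between genes were compared as CPM per kilobase of the longest annotated transcript. Over all 18 libraries the mean level was 7.31 CPM per kb for Msln, 6.03 for Prg4, 5.43 for Upk3b and 4.53 for Aldh1a2. It was 2.65 for Krt19, 2.13 for Wt1, 1.68 for Krt18 and 0.870 for Krt8. The surface proteins, the lubricant and the retinoic acid enzyme were thus the more abundant messages, and the keratins and Wt1 the less abundant. In the ISO group every pair of neighbours in the order of levels differed by less than the larger SD of the pair, from Msln at 4.74 ± 8.24 CPM per kb (SD, n = 6) and Upk3b at 3.68 ± 6.16 down to Krt18 at 1.08 ± 1.29 and Krt8 at 0.472 ± 0.571. In the 100 nm PS group only Krt18 (2.19 ± 0.982) and Krt8 (1.12 ± 0.824) differed by more than either SD among neighbours, and in the 1 µm PS group only Aldh1a2 (4.80 ± 0.748) and Krt19 (2.75 ± 1.81) did.

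**Figure D1:**
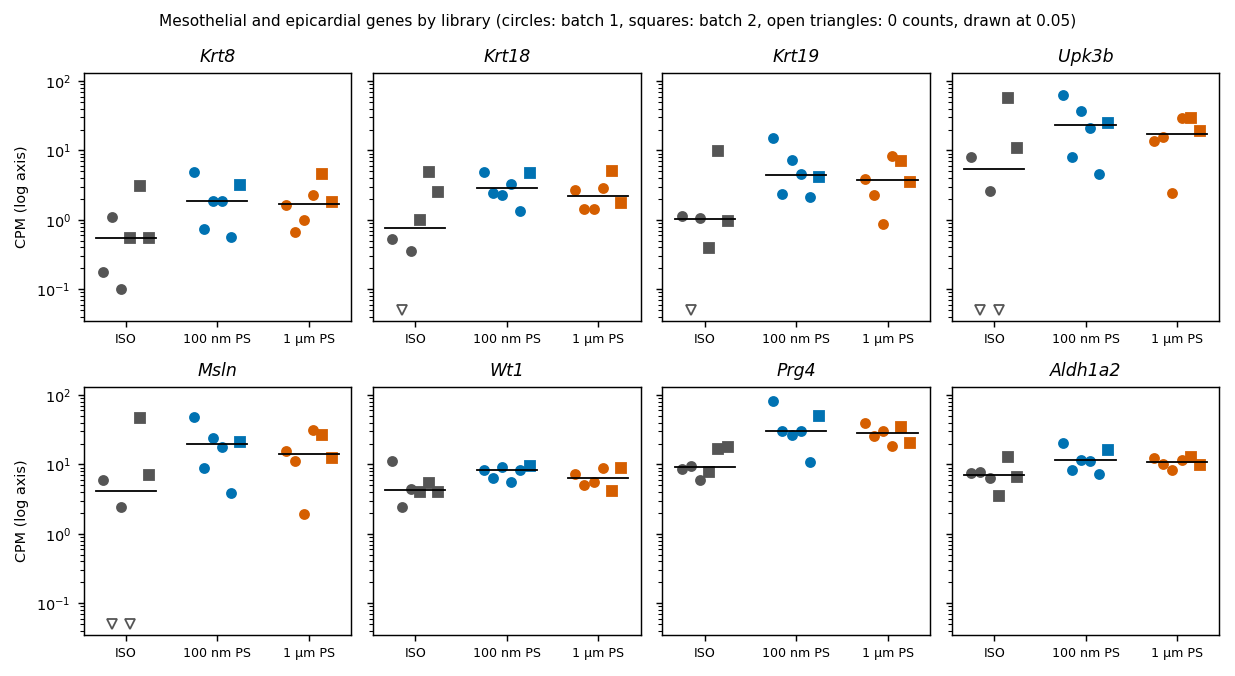
Level of each of the 8 genes in each library, as CPM on a log axis, for ISO, 100 nm PS and 1 µm PS (circles are batch 1, squares batch 2, open triangles libraries with 0 counts drawn at 0.05, and lines the medians of 6 libraries). The Prg4 points of 1 µm PS, from 18.3 to 39.2 CPM, all lie above the highest ISO point of 17.7 CPM, while ISO replicate 5 lies far above the other ISO points for Upk3b and Msln.

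Prg4 was the gene of the 8 that passed the test, and it did so with both particle sizes: it rose by 1.95 on the log2 scale with 100 nm PS (SE 0.39, adjusted p = 0.0117) and by 1.47 with 1 µm PS (SE 0.38, adjusted p = 0.0294; edgeR's quasi-likelihood test with batch as a term, Benjamini-Hochberg adjustment over all genes tested, threshold 0.05). Thus 1 of 8 genes passed and rose in each comparison, and none fell. Of all genes tested, 9.57% passed with 100 nm PS, with 3.88% higher and 5.69% lower, and 7.39% passed with 1 µm PS, with 2.89% higher and 4.5% lower. The 7 other genes had log2 fold changes from 0.57 to 2.07 with 100 nm PS and from 0.34 to 1.45 with 1 µm PS, all above 0, at adjusted p from 0.0582 to 0.273 and from 0.142 to 0.511. In bulk tissue, a change in the number of cells of a type and a change in RNA per cell cannot be told apart.

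Prg4 encodes lubricin (proteoglycan 4), a secreted mucin-like protein that lubricates joint and serosal surfaces. Its level in the ISO group ran from 6.02 CPM in replicate 3 over a median of 9.04 to 17.7 CPM in replicate 6. With 100 nm PS it ran from 10.9 CPM in replicate 5 over a median of 30.2 to 81.8 CPM in replicate 1, and 5 of 6 libraries were above every ISO library. With 1 µm PS it ran from 18.3 over 28.1 to 39.2 CPM, and all 6 libraries were above every ISO library. Prg4 was the only one of the 8 genes whose groups did not overlap, with 1 µm PS. Of all genes tested, 1.12% lay wholly above ISO in this way with 1 µm PS and 1.63% with 100 nm PS, while 0.424% and 0.745% lay wholly below it. The fitted change was 3.87-fold with 100 nm PS and 2.76-fold with 1 µm PS, and ISO replicate 2 held 9.499 CPM. Without that library the log2 fold changes were 1.95 and 1.46 (adjusted p = 0.0100 and 0.0300). Both calls were lost once libraries were corrected for GC content (2.04, adjusted p = 0.0736, and 1.54, adjusted p = 0.129) and without a batch term (1.78, adjusted p = 0.0513, and 1.34, adjusted p = 0.122). The call with 100 nm PS was also lost without 100 nm PS replicate 6, the single batch 2 library of its group (1.94, adjusted p = 0.0502). The call with 1 µm PS was lost without ISO replicate 4 (1.38, adjusted p = 0.0623) and without replicates 1, 2, 3 or 5 of 1 µm PS (1.33 to 1.47, adjusted p = 0.0519 to 0.0675). In batch 1 alone Prg4 was 2.16 higher with 100 nm PS (adjusted p = 0.0339) and 1.83 with 1 µm PS (adjusted p = 0.0723). In batch 2 alone the values were 1.81 (adjusted p = 0.407) and 0.92 (adjusted p = 0.171).

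Aldh1a2 encodes a retinaldehyde dehydrogenase, the enzyme that makes retinoic acid in epicardium. It had the smallest relative spread of the 8 genes within the 1 µm PS group, a coefficient of variation of 15.6%. It ran from 3.496 CPM over a median of 7.03 to 13.0 CPM in ISO, from 7.26 over 11.5 to 20.3 CPM with 100 nm PS and from 8.37 over 10.9 to 12.6 CPM with 1 µm PS. ISO replicate 5, the highest ISO library, lay above every 1 µm PS library and was the only ISO library to overlap with that group. ISO replicates 1, 2 and 5 lay above the lowest 100 nm PS library, and 2 libraries of 100 nm PS lay above all of ISO. The log2 fold changes were 0.81 with 100 nm PS (SE 0.29, adjusted p = 0.0763) and 0.58 with 1 µm PS (SE 0.28, adjusted p = 0.187), and every library of each PS group was above the ISO mean of its own batch. Without ISO replicate 5 Aldh1a2 passed with 100 nm PS (0.99, adjusted p = 0.0283) and not with 1 µm PS.

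Among 18 other genes of retinoic acid synthesis, breakdown, transport and reception, 14 were tested. The retinoic acid receptor genes Rara and Rarg rose with each particle size and the other 12 did not pass. Rara was 1.04 higher with 100 nm PS (SE 0.27, adjusted p = 0.0263) and 1.07 with 1 µm PS (SE 0.26, adjusted p = 0.0252), from a mean of 10.2 ± 4.43 CPM in ISO (SD, n = 6) to 17.3 ± 3.67 and 19.4 ± 6.58 CPM. Rarg was 0.97 higher with 100 nm PS (SE 0.29, adjusted p = 0.0453) and 1.04 with 1 µm PS (SE 0.29, adjusted p = 0.0363). ISO replicate 2 was the lowest ISO library for Rara (2.08 CPM) and Rarg (8.80 CPM). The median log2 fold change of the 14 genes was -0.05 in each comparison, beside -0.02 and 0.00 over all genes tested. Rara passed in 14 of 18 fits that each left out a library with 100 nm PS, being lost without 100 nm PS replicates 1, 2, 3 or 6 (adjusted p up to 0.0671), and in 15 of 18 with 1 µm PS, being lost without its replicates 1, 3 or 5 (up to 0.0599). Rarg passed in 4 of 18 such fits with 100 nm PS, those without ISO replicates 3 or 5 or 1 µm PS replicates 5 or 6 (adjusted p up to 0.105 in the others). With 1 µm PS it passed in 8 of 18, being lost without ISO replicates 1, 4 or 6, 100 nm PS replicates 2, 3 or 6, or 1 µm PS replicates 1 to 4 (up to 0.0765). Among other fits, the calls of both genes were also lost without a batch term and with the GC correction. Those of Rara were lost in batch 1 alone as well. The calls held in 21 and 22 of 32 alternatives for Rara, and in 9 and 15 for Rarg.

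Upk3b, a uroplakin family membrane protein, and Msln, which encodes the surface glycoprotein mesothelin, are the genes of the 8 most closely tied to mesothelium. Upk3b ran from 0 over a median of 5.38 to 56.5 CPM in ISO, from 4.55 over 23.1 to 62.4 CPM with 100 nm PS and from 2.47 over 17.4 to 29.3 CPM with 1 µm PS. Msln ran from 0 over 4.16 to 46.2 CPM in ISO, from 3.85 over 19.7 to 47.7 CPM with 100 nm PS and from 1.92 over 13.9 to 31.5 CPM with 1 µm PS. For each gene the ISO group held both the lowest libraries, replicates 2 and 4 at 0, and 1 of the 2 highest, replicate 5, and the groups overlapped. With 100 nm PS 3 of 6 ISO libraries lay above the lowest PS library and 1 PS library lay above all of ISO, and with 1 µm PS these numbers were 4 and 0, for each gene. The coefficient of variation in ISO was 167% for Upk3b and 174% for Msln, the latter the largest of the 8 genes in any group. Upk3b had log2 fold changes of 1.93 with 100 nm PS (SE 1.10, adjusted p = 0.255) and 1.09 with 1 µm PS (SE 1.01, adjusted p = 0.511). Msln had 1.85 (SE 1.10, adjusted p = 0.273) and 1.302 (SE 1.02, adjusted p = 0.428). Without ISO replicate 5 the values were 2.77 and 2.11 for Upk3b and 2.83 and 2.45 for Msln, and without ISO replicate 2 they were 1.41 and 0.64 and 1.32 and 0.84. Neither gene passed in any of the 32 alternative fits of either comparison.

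Krt8 and Krt18 encode the type II and type I keratins that pair into the intermediate filaments of simple epithelia, and Krt19 encodes a further type I keratin. Krt18 ran from 0 over a median of 0.768 to 4.86 CPM in ISO, from 1.35 over 2.85 to 4.83 CPM with 100 nm PS and from 1.41 over 2.23 to 5.05 CPM with 1 µm PS. Krt19 ran from 0 over 1.02 to 9.79 CPM, from 2.13 over 4.37 to 15.4 CPM and from 0.857 over 3.73 to 8.30 CPM in the same groups. Krt8 ran from 0.102 over 0.547 to 3.09 CPM, from 0.574 over 1.89 to 4.88 CPM and from 0.662 over 1.71 to 4.62 CPM. The lowest ISO value of Krt8 rests on 2 counts, while the highest value of Krt19 rests on 328 counts. All 3 keratins were highest in ISO in replicate 5, and the groups overlapped. ISO libraries above the lowest PS library numbered 2 for Krt8 and for Krt18 in each comparison, and 1 (100 nm PS) and 4 (1 µm PS) for Krt19.

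Of the genes that did not pass with 100 nm PS, Krt18 had the smallest adjusted p, 0.0582 at a log2 fold change of 2.02 (SE 0.65). Its value with 1 µm PS was 1.45 (SE 0.62, adjusted p = 0.142). Krt19 had 2.07 (SE 0.93, adjusted p = 0.150) and 1.36 (SE 0.84, adjusted p = 0.308), and Krt8 had 1.83 (SE 0.68, adjusted p = 0.0908) and 1.39 (SE 0.65, adjusted p = 0.175). Without ISO replicate 5 all 3 keratins passed with 100 nm PS, Krt8 at 2.34 (adjusted p = 0.0327), Krt18 at 2.44 (adjusted p = 0.0205) and Krt19 at 3.05 (adjusted p = 0.0189), and Krt19 alone of them with 1 µm PS at 2.58 (adjusted p = 0.0373). With 100 nm PS, Krt8 also passed without ISO replicate 2 (2.25, adjusted p = 0.0454) and Krt18 without 1 µm PS replicate 6 (2.27, adjusted p = 0.0416). Without ISO replicate 2 Krt18 had 1.53 and 1.01 (adjusted p = 0.0573 and 0.184) and Krt19 had 1.56 and 0.95 (adjusted p = 0.250 and 0.472). By DESeq2's Wald test Krt8 (1.82, adjusted p = 0.0333) and Krt18 (2.07, adjusted p = 0.00401) passed with 100 nm PS, and Krt18 (1.498, adjusted p = 0.0364) with 1 µm PS. Lower values came from limma voom, with Krt18 at 1.04 and 0.49 (adjusted p = 0.194 and 0.621), and from the fit without a batch term, with Krt18 at 1.02 and 0.71 (adjusted p = 0.451 and 0.646).

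Wt1 encodes a zinc-finger transcription factor required for formation of the epicardium. Of the 8 genes it had the smallest relative spread in the 100 nm PS group, from 5.50 CPM over a median of 8.31 to 9.47 CPM. In ISO it ran from 2.39 over 4.21 to 11.2 CPM, and with 1 µm PS from 4.09 over 6.38 to 9.03 CPM. ISO replicate 1, the highest library of all 18, was the only ISO library above 5.38 CPM. The log2 fold changes were 0.57 with 100 nm PS (SE 0.31, adjusted p = 0.240) and 0.34 with 1 µm PS (SE 0.31, adjusted p = 0.501). Without ISO replicate 1 Wt1 passed with 100 nm PS (1.05, adjusted p = 0.0213) and had 0.79 with 1 µm PS (not passed), and with limma voom it also passed with 100 nm PS (0.93, adjusted p = 0.0491). Without ISO replicate 2 it had 0.38 and 0.17 (adjusted p = 0.390 and 0.739).

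Across the 8 genes the median log2 fold change was 1.89 with 100 nm PS and 1.33 with 1 µm PS, beside medians of -0.02 and 0.00 over all genes tested. With 100 nm PS, 5 of 8 genes had an unadjusted p under 0.05 and a higher level, as did 12.2% of all genes tested (28.6% in either direction). With 1 µm PS 3 of 8 did, as did 11.9% of all (27.0% in either direction). A log2 fold change of at least 1 was found for 6 of 8 genes in each comparison, and for 5.16% and 3.34% of all genes. The comparisons share the ISO libraries. The 8 genes also vary together between libraries (median r of their pairs 0.661), and they were chosen with earlier results of these data known. They are thus not independent of each other, and these shares are descriptive. The median of the 8 genes moved with single ISO libraries, from 1.47 without replicate 2 to 2.39 without replicate 5 with 100 nm PS, and from 0.89 to 1.95 with 1 µm PS. It was 1.02 and 0.70 without a batch term, and 0.93 and 0.51 in batch 2 alone.

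The log2 fold change was larger in batch 1 than in batch 2 for the surface proteins and the type I keratins. With 100 nm PS the log2 fold change in batch 1 alone and in batch 2 alone was 2.89 and 0.17 for Upk3b, 2.89 and 0.27 for Msln, 3.06 and 0.19 for Krt19, and 3.23 and 0.76 for Krt18. With 1 µm PS the values were 2.09 and 0.09, 2.44 and 0.12, 2.35 and 0.50, and 2.81 and 0.24 for these genes. Krt8 (2.16 and 1.18, then 1.65 and 1.17) and Aldh1a2 (0.71 and 1.09, then 0.57 and 0.53) differed less, and Wt1 was the gene with larger values in batch 2 for each size (0.32 and 1.10, then 0.15 and 0.54). Krt18 passed in batch 1 alone with 100 nm PS (adjusted p = 0.0318). The difference between batches itself passed for none of the 8 genes by edgeR's test of the batch-by-group term. Of all 14623 genes tested, at most 17 passed that test in any comparison. Among the 8 genes its smallest adjusted p was 0.273, for Krt18 with 1 µm PS (-2.54, unadjusted p = 0.0342). That was the only value of the 8 genes with an unadjusted p under 0.05. The SE of this term with 1 µm PS was 1.97 for Upk3b and 1.96 for Msln. A missing call therefore does not show that the batches were alike. ISO replicate 5, the ISO library with the highest level of 6 of the 8 genes, is 1 of the 3 ISO libraries of batch 2, and 100 nm PS has 1 library there.

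**Figure D2:**
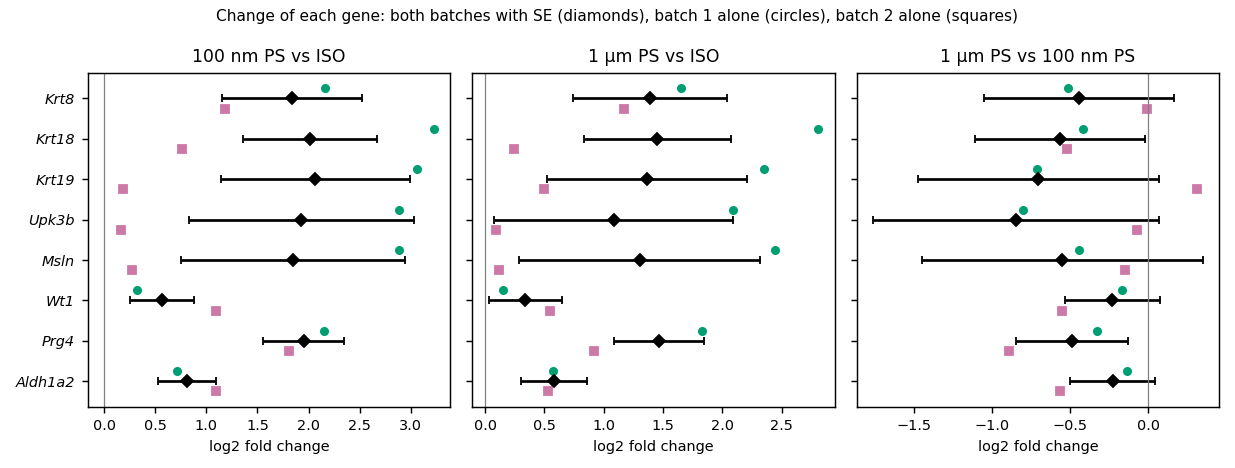
log2 fold change of each gene in the 3 comparisons, with both batches in 1 fit (diamonds, bars are the SE), in batch 1 alone (circles) and in batch 2 alone (squares). All 8 genes lie above 0 against ISO in each batch, with Prg4 at 1.95 and 1.47, and against ISO the batch values of Krt18, Krt19, Upk3b and Msln lie farther apart than those of the other 4 genes.

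Between particle sizes, no gene of the 8 passed. The log2 fold change of 1 µm against 100 nm PS was -0.49 for Prg4 (approximate 95% interval -1.26 to 0.28), -0.23 for Aldh1a2 (-0.81 to 0.36) and -0.23 for Wt1 (-0.88 to 0.43). For Upk3b it was -0.85 (-2.81 to 1.12), for Msln -0.55 (-2.48 to 1.38), for Krt19 -0.70 (-2.35 to 0.95), for Krt18 -0.56 (-1.73 to 0.60) and for Krt8 -0.44 (-1.75 to 0.86). All 8 values were below 0, and the wide intervals of the surface proteins include changes of more than 1 on the log2 scale in either direction. The median was -0.52, beside 0.01 over all genes tested, and it was -0.08 without 100 nm PS replicate 1, the library with the highest summed CPM of the 8 genes (245). The size groups overlapped for all 8 genes, and were apart for 0.00684% (1 µm PS higher) and 0.0274% (lower) of all genes. A log2 fold change of -1 or below was found for 0 of the 8 and for 0.458% of all. By edgeR 0 of 14623 genes passed (0.0%), and 49 (0.335%, with 0.109% higher in 1 µm PS) had an unadjusted p under 0.05, none of them among the 8, while DESeq2 and limma voom also passed 0 genes, with 74 and 35 at an unadjusted p under 0.05. These counts are far below what the 0.05 threshold would give if no gene differed. The p-values between sizes may thus be conservative here, and the intervals too wide. The comparisons with ISO share the same estimate of the spread, and its effect on their p-values was not tested. The missing calls do not show that the sizes act alike, and the cause of the low counts was not tested.

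The 8 genes varied together between libraries, to differing degrees. Pearson's r of log2 CPM with batch means removed was computed for all 28 pairs over 18 libraries, with permutation within batches (100000 resamples, two-sided) and adjustment over the 28 pairs. It ran from 0.209 for Krt8 and Wt1 to 0.996 for Upk3b and Msln, with a median of 0.661. By permutation 25 of 28 pairs passed with Pearson's r and 21 with Spearman's rho. Libraries were permuted within batches and not within groups, so differences between groups are part of these counts. The share of passing pairs among other genes was not computed, so the counts are not shown to be particular to the 8 genes. With the group means removed as well, r ran from -0.161 to 0.994 with a median of 0.527.

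Upk3b and Msln had the closest relation. Their r was 0.996 and their rho 0.986 (each with permutation p = 1e-05, the smallest these permutations can give, adjusted p = 7e-05 and 4.67e-05). It was 0.994 in batch 1, 0.997 in batch 2, 0.994 with group means removed and 0.983 without the 2 libraries farthest from the median, ISO replicates 2 and 4, in which both genes were at 0. In the 16 libraries that held counts of both, the ratio of Upk3b to Msln counts stayed between 0.866 and 1.57 (median 1.20), while Upk3b itself ranged from 2.47 to 62.4 CPM. Krt19 followed them, with an r of 0.934 to Msln (permutation adjusted p = 7e-05, rho 0.961) and of 0.914 with group means removed.

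**Figure D3:**
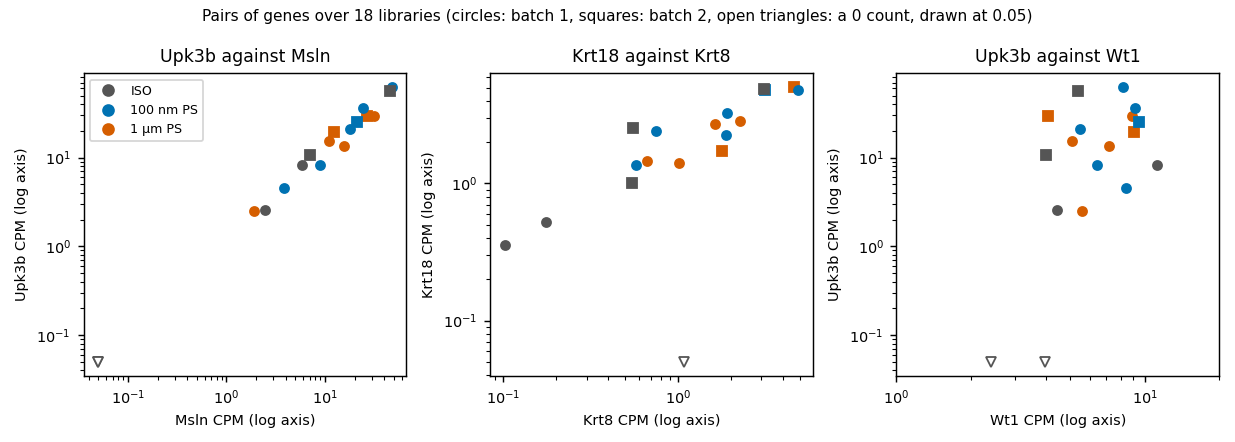
CPM of pairs of genes in the 18 libraries on log axes, coloured by group (circles are batch 1, squares batch 2, and open triangles have a 0 count, drawn at 0.05). Upk3b and Msln lie along a narrow line (r = 0.996) with ISO replicates 2 and 4 overlaid in 1 triangle, while Krt18 against Krt8 (r = 0.622) and Upk3b against Wt1 (r = 0.624, and 0.290 without those ISO replicates) scatter more widely.

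The filament partners Krt8 and Krt18 were less closely related to each other, with an r of 0.622 (permutation p = 0.0079, adjusted p = 0.0109) and a rho of 0.789 (adjusted p = 0.00038). The r was 0.586 in batch 1, 0.813 in batch 2, 0.298 with group means removed and 0.495 without ISO replicate 3 and 100 nm PS replicate 1. ISO replicate 2, with 14 counts of Krt8 and 0 of Krt18, was the library that departed most, and over the other 17 the ratio of Krt18 to Krt8 counts ran from 0.969 to 4.62. Krt18 was closer to Krt19 (r = 0.896, rho = 0.847, permutation adjusted p = 9.33e-05 and 0.000105), and Krt8 was closer to Aldh1a2 (r = 0.850, rho = 0.880, permutation adjusted p = 7e-05 and 4.67e-05).

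Prg4 was closest to Aldh1a2, with an r of 0.809 (rho 0.761, permutation adjusted p = 9.33e-05 and 0.000805), 0.850 in batch 1, 0.875 in batch 2, 0.727 with group means removed and 0.738 without the 2 farthest libraries. It was less close to Upk3b (r = 0.637, rho = 0.529, permutation adjusted p = 0.0078 and 0.0385, and r = 0.406 with group means removed). The ratio of Prg4 to Upk3b counts ran from 0.296 in ISO replicate 5 to 12.4 in 1 µm PS replicate 3. Wt1 had the weakest relations. It was not shown to vary with Prg4 (r = 0.324, permutation adjusted p = 0.213), Aldh1a2 (r = 0.423, permutation adjusted p = 0.0922) or Krt8. Its r to Upk3b of 0.624 (permutation adjusted p = 0.0088) rested on ISO replicates 2 and 4: it was 0.290 without them, and the rho of 0.426 did not pass (adjusted p = 0.1002). The r of Wt1 to Krt18 was 0.531, and 0.0186 without ISO replicates 2 and 3.

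**Figure D4:**
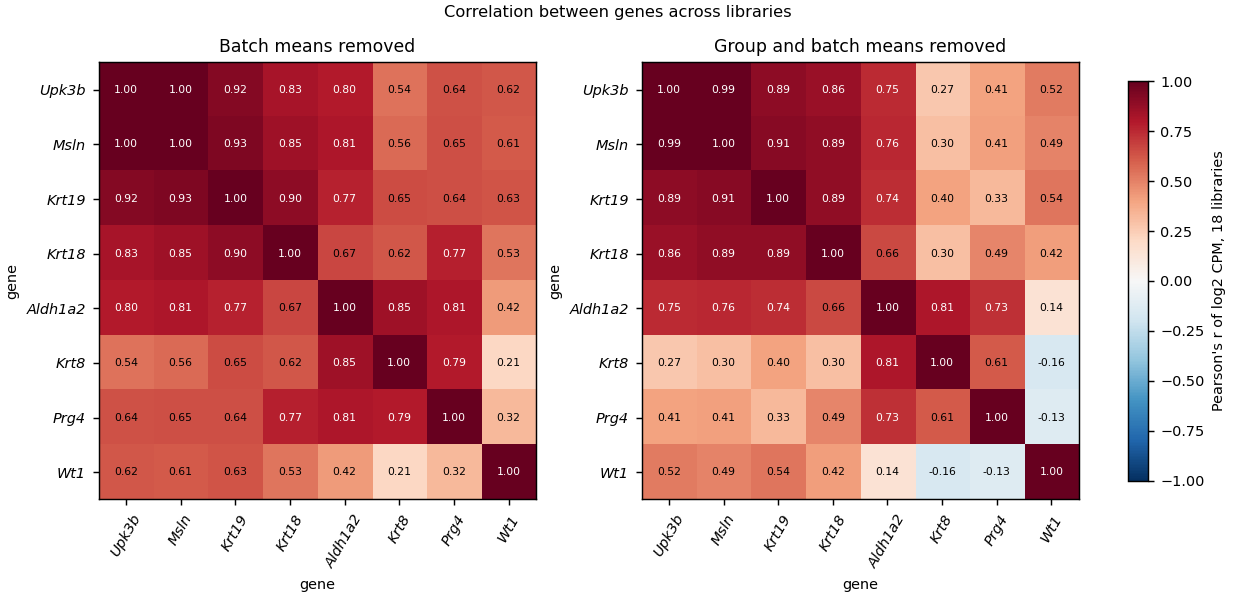
Pearson's r between the 8 genes over 18 libraries, from log2 CPM with batch means removed (left) and with group and batch means removed (right), where red marks a positive and blue a negative r. Upk3b, Msln, Krt19 and Krt18 form a block of high r in both panels, and Wt1 has the lowest values, down to -0.161 with Krt8 on the right.

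For the genes that varied together, the DNA just before the transcription start is shown for those the RefSeq promoter table holds (build GRCm38.p6), 4 of the 8: both filament partners, a surface protein and the retinoic acid enzyme. Each run is the 250 bases upstream of the start, 5′ to 3′ on the strand of the gene, and capitals mark matches to the motifs searched on both strands. Krt8 lies at chr15:102004343-102004592 on the minus strand and Krt18 at chr15:102027966-102028215 on the plus strand, Upk3b at chr5:136038246-136038495 (plus) and Aldh1a2 at chr9:71215539-71215788 (plus).
Krt8: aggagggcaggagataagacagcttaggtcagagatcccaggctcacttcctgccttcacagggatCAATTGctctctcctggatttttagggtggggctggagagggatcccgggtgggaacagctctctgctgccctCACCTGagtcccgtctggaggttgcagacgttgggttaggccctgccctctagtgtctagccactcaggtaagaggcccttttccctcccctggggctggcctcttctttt
Krt18: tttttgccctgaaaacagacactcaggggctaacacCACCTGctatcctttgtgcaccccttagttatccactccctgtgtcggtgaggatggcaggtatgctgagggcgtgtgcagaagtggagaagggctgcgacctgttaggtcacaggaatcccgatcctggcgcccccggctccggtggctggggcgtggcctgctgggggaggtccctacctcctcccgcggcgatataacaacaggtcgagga
Upk3b: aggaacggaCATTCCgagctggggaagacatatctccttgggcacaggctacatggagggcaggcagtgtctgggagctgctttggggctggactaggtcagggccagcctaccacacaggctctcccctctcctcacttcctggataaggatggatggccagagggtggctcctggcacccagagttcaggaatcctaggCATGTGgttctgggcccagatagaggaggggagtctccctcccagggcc
Aldh1a2: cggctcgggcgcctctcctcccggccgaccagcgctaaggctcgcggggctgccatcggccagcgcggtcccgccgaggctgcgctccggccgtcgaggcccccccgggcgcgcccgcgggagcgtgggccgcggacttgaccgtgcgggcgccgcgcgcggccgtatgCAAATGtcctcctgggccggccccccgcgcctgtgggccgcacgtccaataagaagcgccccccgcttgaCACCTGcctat

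The motifs were the TEAD motif GGAATG, the AP-1 motif TGANTCA, the GC box GGGCGG, the TATA box TATAAA and the E-box CANNTG, none of whose matches overlapped here. The E-box was found in all 4 windows and in 66.2% of the 32851 windows of the same length in the table. The variant CACCTG of the E-box stood in Krt8 (bases -111 to -106, counted from the start), Krt18 (-214 to -209) and Aldh1a2 (-11 to -6). The TEAD motif was found in Upk3b alone, as CATTCC at -241 to -236, and in 12.6% of all windows. The AP-1 motif (6.75% of all windows), the GC box (32.7%) and the TATA box (12.4%) were in none of the 4. The window of Aldh1a2 was 77.6% G and C with 40 CpG, against medians of 52.4% and 6 over all windows, while Krt8, Krt18 and Upk3b had 58.0%, 60.4% and 60.8% with 3, 12 and 2 CpG. A match is a description of letters and does not show a bound site.

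Among the 12481 other genes with a mean of at least 1 CPM and a full symbol, 18 had an r above 0.9 to the mean of the 8 genes over the 18 libraries (log2 CPM with batch means removed), where the median r was 0.114. The 8 closest were Tmem151a (r = 0.960), Upk1b (0.957), Capn6 (0.948), Lrrn4 (0.943), Cyp2s1 (0.942), Rspo1 (0.941), Vwf (0.938) and Krt7 (0.935), and their r stayed between 0.892 and 0.966 with group means removed. All libraries share their depth and tissue makeup with the 8 genes, so these values are descriptive. Upk1b, Lrrn4, Rspo1 and Krt7 belong to the list of other mesothelial genes, and Vwf encodes von Willebrand factor of endothelium. Of the 8 closest, Capn6 (2.03 higher, SE 0.63, adjusted p = 0.0479) and Vwf (1.20 higher, SE 0.37, adjusted p = 0.0459) passed with 100 nm PS. Of 18 fits that each left out a library, Capn6 passed in 3 (without ISO replicates 1, 2 or 5) and Vwf in 4 (without ISO replicates 1 or 5, 100 nm PS replicate 5 or 1 µm PS replicate 6). None passed with 1 µm PS.

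Of 19 other mesothelial and epicardial genes, 18 were tested (all but Calb2). Cldn15, a claudin of tight junctions, rose with 100 nm PS and the other 17 did not pass, and none of the 18 passed with 1 µm PS. Cldn15 went from 6.05 ± 3.94 CPM in ISO to 11.7 ± 3.88 CPM with 100 nm PS (SD, n = 6; log2 fold change 1.31, SE 0.34, adjusted p = 0.0249) and 10.2 ± 2.94 CPM with 1 µm PS (1.03, SE 0.32, adjusted p = 0.0582). Its call was lost without 100 nm PS replicates 1, 3 or 6 (adjusted p = 0.0528 to 0.0637). Among other fits, it was also lost by limma voom, without a batch term and with the GC correction. The call held in 22 of 32 alternatives. The median of the 18 genes was 0.99 with 100 nm PS and 0.52 with 1 µm PS, and 18 and 14 of them had a log2 fold change above 0. Tcf21, a transcription factor of epicardial derivatives and fibroblasts, had 0.65 with 100 nm PS (adjusted p = 0.0717), and Bnc2, a zinc-finger protein, had 1.304 with 1 µm PS (adjusted p = 0.185).

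Of 18 keratin and epithelial junction genes 9 were tested. None passed with 100 nm PS, where Jup, the desmosome and adherens junction protein plakoglobin, had 0.60 (adjusted p = 0.0607), and Jup rose by 0.68 with 1 µm PS (SE 0.19, adjusted p = 0.0401, passed in 6 of 18 fits that left out a library, those without ISO replicates 1, 2, 3 or 5, 100 nm PS replicate 5 or 1 µm PS replicate 6, with an adjusted p up to 0.0897 in the others). Cdh3, P-cadherin, had 2.35 and 1.98 (adjusted p = 0.166 and 0.213). The medians of the 9 genes were 0.14 and 0.27. Of 12 genes of the transition of epicardium to mesenchyme and of its derivatives, all tested, Pdgfrb, the PDGF receptor of pericytes and fibroblasts, rose by 0.58 with 100 nm PS (SE 0.16, adjusted p = 0.0325) and by 0.59 with 1 µm PS (SE 0.16, adjusted p = 0.0312). Its calls were lost without ISO replicate 4 in each comparison, without 100 nm PS replicates 1, 2, 3, 4 or 6 in the first (adjusted p up to 0.122) and without 1 µm PS replicates 1 to 4 in the second (up to 0.0752). Among other fits, both calls were also lost without a filter, without a batch term and with the GC correction. They held in 17 and 18 of 32 alternatives. The medians were 0.12 and 0.07. Of 14 genes for secreted signals of the epicardium 12 were tested and none passed in either comparison, with medians of 0.28 and 0.17. Fstl1, a secreted follistatin-like protein of epicardium, had 0.76 with 100 nm PS (adjusted p = 0.0551). Dhh had 1.11 with 100 nm PS and 0.96 with 1 µm PS (adjusted p = 0.0783 and 0.114). Fgf9 was lower with 1 µm PS, at -0.43 (adjusted p = 0.0983). Of the 12 genes, 7 had a log2 fold change above 0 with 100 nm PS and 8 with 1 µm PS.

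Markers of other tissues that could lie in the samples were read beside these values. Of 11 lung epithelium markers, which would accompany pleural mesothelium of lung, 1 was tested and did not pass, Cldn18 was at 0 in all libraries, and their summed level was 0.0772 to 5.75 CPM in ISO, 0.533 to 4.83 with 100 nm PS and 0.655 to 8.38 with 1 µm PS. Of 9 atrial muscle markers 7 were tested. With 100 nm PS Myl4 and Dkk3 rose and Kcnj3 fell (-1.01, adjusted p = 0.0205), and with 1 µm PS Kcnj3 fell (-0.95, adjusted p = 0.0253). The first Kcnj3 call was lost without 100 nm PS replicate 6, and the second without ISO replicate 4 or 1 µm PS replicates 1 or 3. Both Kcnj3 calls were lost without a batch term and with the GC correction, and they held in 25 and 21 of 32 alternatives. Without 100 nm PS replicate 1, which held 573 CPM of Myl4 and 139 CPM of Dkk3, neither rise passed (0.60 and 1.68, adjusted p = 0.394 and 0.0858), and they were also lost without ISO replicate 2 (adjusted p = 0.125 and 0.114). Their sum was 194 to 991 CPM in ISO, 407 to 3759 with 100 nm PS and 332 to 1015 with 1 µm PS, highest in 100 nm PS replicate 1, which was also the highest library of all for Krt8, Krt19, Upk3b, Msln, Prg4 and Aldh1a2 (Krt8 at 4.88 CPM and Prg4 at 81.8 CPM). Its part in the changes is measured only by leaving it out, which gave 1.58 for Prg4 with 100 nm PS (adjusted p = 0.0313) and a median of 1.41 over the 8 genes.

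Of 10 fibroblast markers, all tested, 5 rose with 100 nm PS and 1 with 1 µm PS, where 3.88% and 2.89% of all genes did. Leaving out ISO replicate 2 gave 4 in the first comparison, leaving out ISO replicate 4 or 100 nm PS replicates 1, 2 or 3 gave 2, 100 nm PS replicate 4 gave 3 and 100 nm PS replicate 6 gave 0. The second count ranged from 0 to 4 (without ISO replicate 5) with 1 library left out. Their sums were 2608 to 4326 CPM in ISO, 3922 to 7545 with 100 nm PS and 4114 to 6303 with 1 µm PS. Of 10 endothelial markers, all tested, Esam and Vwf rose with 100 nm PS and none with 1 µm PS. These calls held in 5 and 4 of 18 fits that each left out a library, and neither held without 100 nm PS replicate 1. The sums were 1979 to 3386, 2279 to 3807 and 1967 to 3490 CPM. The part of these cells in the values of Wt1, Prg4 and Aldh1a2 was not tested. None passed of 10 fat markers (3 tested), 9 thymus and lymphoid markers (3 tested, Dntt and Rag2 at 0 in all libraries) or 7 blood markers in either comparison. Leaving out ISO replicate 3 made 4 blood markers pass as lower in each comparison. The blood sums were 278 to 4021 CPM in ISO, 341 to 1547 with 100 nm PS and 246 to 1262 with 1 µm PS. Their medians were 2013, 591 and 866 CPM. In each comparison 0 of the 7 blood markers had a log2 fold change above 0, with medians of -1.38 and -1.43. Of 9 skeletal muscle markers, of which 5 were tested, Tnni2 and Tnnt3 passed as lower with 100 nm PS and none passed with 1 µm PS. ISO replicate 2 held 28.3 and 36.2 CPM against ISO medians of 2.33 and 0.607, and without it the values were -0.26 and 0.18 (adjusted p = 0.781 and 0.843). Of 10 ventricular muscle markers Pln fell in each comparison (-0.91 and -0.72, adjusted p = 0.0205 and 0.0438). With 100 nm PS this call held in 17 of 18 fits that each left out a library, being lost without 100 nm PS replicate 6. With 1 µm PS it held in 5 of 18 (adjusted p up to 0.0966 in the others). Among other fits, both Pln calls were also lost in batch 1 alone, without a batch term and with the GC correction. They held in 24 and 10 of 32 alternatives. The sums of fat markers were 297 to 2573 CPM in ISO, highest in replicate 2, against 402 to 1083 and 295 to 1104 CPM with 100 nm and 1 µm PS. Those of ventricular muscle markers were 39030 to 98740, 42120 to 88700 and 49000 to 118000 CPM in the same order of groups. Their medians were 80090, 52650 and 55840 CPM.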

How the data were processed

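Poly(A) RNA-seq libraries of mouse heart were made from TRIzol extracts and sequenced as paired ends by 2 providers, per the labels' protocols, and the provider was taken as the batch. The deposited table of batch 1 (12 libraries) holds raw counts per gene and that of batch 2 (6 libraries) holds estimated counts, of whose nonzero values 19.6% are not whole; these were rounded to whole numbers. Per the submitters' processing notes, the builds were GRCm39 and mm39, and the tools were DESeq2, featureCounts 1.5.0-p3, StringTie 1.3.3b, HISAT2 2.0.5 and fastp. Not given in the sources used here are the role of each tool, the counter behind the batch 2 table, and the strand and multiple mapping settings.

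Of 46548 and 57010 entries, 35560 genes were joined, 22144 by paired Entrez and Ensembl numbers and 13416 by symbol, and hold 98.9% to 99.5% of the counts in batch 1. In batch 2 they hold 85.2% to 87.4% in ISO and 93.1% to 95.8% in PS libraries. In batch 1, 215 entries without a gene name (0.16% to 0.388% of the counts) were left out. Among 23 pairs of libraries compared, none looked like a duplicate.

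The main test was run with edgeR 4.0.16 (R 4.3.3). It used TMM factors, filterByExpr with a minimum count of 10 (14623 genes), and the robust quasi-likelihood test with group and batch over 18 libraries (14 residual degrees of freedom), with Benjamini-Hochberg adjustment and a threshold of 0.05. Levels are CPM on TMM-scaled library sizes, with a prior count of 2 for log2 CPM. The SE is the log2 fold change divided by the square root of F, and the 95% intervals use that SE and are approximate. Lengths and GC content come from the longest GENCODE M21 transcript. The edgeR fit was run on simulated counts with the same dispersion for every gene and group, and the pass mark was lowered after the result was seen. That trial does not show how the fit acts on a spread as uneven as in these libraries.

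The 8 genes and the gene lists (other mesothelial genes, retinoic acid, keratins and junctions, epicardial transition, epicardial signals, and markers of lung, atrium, fat, lymphoid tissue, skeletal muscle, blood, fibroblasts, endothelium and ventricular muscle) were chosen with earlier results of these data known. Besides the 8 genes, those named were the 2 of each list with the smallest unadjusted p in each comparison with ISO, shown where informative, and the 8 with the highest r to the mean of the 8 genes.

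The alternatives tried were no filter or 1 CPM in 6 libraries, upper-quartile or RLE factors, DESeq2 1.42.0, limma 3.58.1 (voom with quality weights), a fit to either batch by itself or without the batch term, a fit to the 2 groups of a comparison, a block for the replicate number, a GC correction (spline with 5 degrees of freedom) without and with that block, each library left out in turn, and ISO replicates 1 and 2 left out together.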

Additional observations from a re-analysis of the deposited data

Results flagged for a closer look

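A sample far from the others of its group was looked for in 27 sets of 6 libraries (each of the 8 genes and their sum in each of 3 groups). The rule was whether the gap to the nearest other sample exceeded 0.625 of the whole range. For normally distributed values chance marks about 1 in 20 such sets. CPM are skewed, so the rate here can be higher. The rule was met in 6 sets, all in the ISO group, and 5 of them were ISO replicate 5. That library had 3.09 CPM of Krt8 (the other 5 ISO libraries 0.102 to 1.08), 9.79 CPM of Krt19 (0 to 1.14), 56.5 CPM of Upk3b (0 to 10.7) and 46.2 CPM of Msln (0 to 7.01). Their sum over the 8 genes was 155 CPM (17.2 to 50.1). These genes vary together, so the 5 sets are not independent. The sixth was ISO replicate 1, with 11.2 CPM of Wt1 (2.39 to 5.38 in the others). Neither PS group had such a library.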

How the results depend on the processing

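In both comparisons with ISO all 8 genes had a log2 fold change above 0 under all 32 alternatives. The number of the 8 that passed with 100 nm PS, 1 as reported, was 3 by DESeq2, 2 by limma voom, 2 in batch 1 alone, and 0 without a batch term, in batch 2 alone, with the GC correction and without ISO replicates 1 and 2 together. With 1 library left out it ranged from 0 (100 nm PS replicate 6 omitted) to 5 (ISO replicate 5 omitted), and it was 2 without ISO replicate 1, ISO replicate 2 or 1 µm PS replicate 6. With 1 µm PS, also 1 as reported, it was 2 by DESeq2 and 0 by limma voom, without a batch term, in either batch alone, with only the groups compared, with the GC correction and without both ISO replicates. It was 0 (without ISO replicate 4 or 1 µm PS replicates 1, 2, 3 or 5) to 2 (without ISO replicate 5) when 1 library was left out. Prg4 passed in 25 of 32 alternatives with 100 nm PS (1.58 to 2.16, adjusted p = 8.12e-05 to 0.407) and in 18 of 32 with 1 µm PS (0.92 to 1.83, adjusted p = 0.00297 to 0.488). Of all genes, 1399 passed with 100 nm PS and 1081 with 1 µm PS. Those counts were 717 and 481 without a filter, 2603 and 2348 by DESeq2, 7 and 11 in batch 2 alone, 364 and 0 (2701 at an unadjusted p under 0.05) with only the groups compared, and 606 with 100 nm PS without both ISO replicates. They were 598 with 1 µm PS in batch 1 alone, and 0 by edgeR without a batch term (2759 and 2358 unadjusted) and with the GC correction (2954 and 2349). Leaving out 1 library gave 170 (100 nm PS replicate 6) to 2283 (ISO replicate 3) and 265 (1 µm PS replicate 1) to 2334 (ISO replicate 3). The first count moved by over 1.5 times without ISO replicates 3 or 4, any 100 nm PS library or 1 µm PS replicate 2, and the second without any ISO library but replicate 5, 100 nm PS replicates 3 or 6, or any 1 µm PS library but replicate 5. Between sizes 1 gene passed in batch 2 alone. The size values that changed sign were Krt19 in batch 2 alone (0.31) and Krt8 without 100 nm PS replicate 1 (0.083, against -0.68 without 1 µm PS replicate 4, the lowest such value). The cause of these changes was not tested. Depth limits Krt8 and Krt18 most, at 0 to 104 counts per library.

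With the replicate number as a block, 0 of the 8 genes and 0 of all genes passed in any comparison by edgeR (2822 and 2875 with an unadjusted p under 0.05 against ISO), and likewise with the GC correction and the block together (1660 and 1373). Prg4 had 2.05 (adjusted p = 0.0861) and 1.57 (adjusted p = 0.0723) with the block. The numbers were not shown to pair the samples. The correlations of same-numbered libraries, centred on group and batch, ran from -0.372 to 0.248. Of these, 1 of 18 was over 0.1, and 0 libraries correlated best with their own number. Centred on group alone, the correlations ran from -0.49 to 0.842. Batch 2 holds 1 library of 100 nm PS and 2 of 1 µm PS, so this check cannot exclude a pairing.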
